A study of Mus musculus with 8 samples.

Results

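A set of 10 genes used as markers of endothelium, the cell layer that lines blood vessels, was followed in RNA-seq of mouse geniculate ganglia: Pecam1, Esam, Ly6c1, Cldn5, Kdr, Flt1, Tek, Sox17, Vwf and Cdh5. The genes were taken by symbol, under a rule that uses no measured value, but with earlier results of these data known. All 10 of the 10 named genes are among the 15110 genes of the deposited table, and all 10 passed the filter on low counts. The geniculate ganglion is the sensory ganglion of the facial nerve, and its neurons carry taste from the front of the tongue and from the palate. The study compared adult C57Bl/6 mice with intact Egr4 (Egr4+/+, wild type littermates, 4 libraries) with adult Egr4-/- mice (knockout, 4 libraries) that lack this zinc finger transcription factor. The labels give the material as the whole cell mixture of the dissected ganglion, in which fewer endothelial cells cannot be told apart from less RNA per cell. How the Egr4 allele was made is not given in the sources used here.

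Endothelial cells are joined by adherens junctions, built on VE-cadherin (Cdh5), and by tight junctions, in which claudin-5 (Cldn5) seals the vessels of the brain and of nerve trunks. Their growth and survival are steered by VEGF ligands through the receptors Kdr and Flt1, and by angiopoietins through Tek. Sensory ganglia are densely vascularised, and their vessels are known to be more permeable than those of the nerve trunk.

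Library totals ran from 30849310 to 54255872 counts, and levels are given as CPM, counts brought to a common library total, after TMM scaling, which sets the bulk of genes equal between libraries. Egr4 itself was at 1.54, 3.14, 0.925 and 3.24 CPM in wild type libraries 1 to 4 and at 0.444, 1.22, 0.940 and 1.05 CPM in knockout libraries 1 to 4. Its groups overlapped, because wild type library 3 lay below 3 of the knockout libraries. The neuronal tubulin gene Tubb3 was present in every library, between 637 and 1092 CPM. The endothelial genes were present in every library too, and their lowest single value was 3.88 CPM. A single library stood apart for the endothelial genes. Summed over the 10 genes, wild type libraries 1 to 4 held 289.5, 420.0, 275.7 and 319.0 CPM, and knockout libraries 1 to 4 held 443.5, 1513, 359.9 and 278.5 CPM. Knockout library 2 was the highest of the 8 libraries for 10 of the 10 genes, against 2268 of the 15110 genes (15%). It was at least 2-fold the mean of the other 7 libraries for 10 of the 10, against 6.86% of all genes. For that reason the comparisons of genotypes are given with and without knockout library 2. That library was picked for its high values in these genes, so leaving it out lowers their knockout levels by construction.

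None of the 10 endothelial genes passed the test between genotypes. Counts were compared with edgeR's quasi-likelihood F-test, with Benjamini-Hochberg adjustment over all 15110 genes and a threshold of 0.05. The adjusted p was 0.924 for 8 of the 10 genes, 0.928 for Kdr and 0.937 for Vwf. Over all genes the test called 1 gene higher in knockouts (0.00662%) and 0 lower (0.0%), with 293 higher (1.94%) and 438 lower (2.9%) at an unadjusted p under 0.05. At that looser level 3 of the 10 endothelial genes were higher and 0 lower. Log2 fold changes of knockout against wild type were positive for 10 of the 10 genes, against 51.3% of all genes, with a median of 0.90 against 0.011 over all genes. Without knockout library 2, 6 were positive and 4 negative, against 48.9% positive of all genes, and the median was 0.12 against -0.012. At an unadjusted p under 0.05, 1 of the 10 was then higher, against 2.54% of all genes, and 1 lower, against 4.69%. Leaving out the libraries numbered 2 of both genotypes left 7 positive and 3 negative, against 50.4% positive of all genes, and called 0 of the 10. The edgeR likelihood ratio test, which called 0.0662% of all genes, and limma-voom, which called 0.00662%, also called 0 of the 10. DESeq2 called 0.0931% of the genes it gave an adjusted p and 0 of 8 endothelial genes, since it gave Pecam1 and Tek no p. The p-values set each difference between genotypes against the spread among libraries of the same genotype, 4 of each unless libraries are left out.

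**Figure D1:**
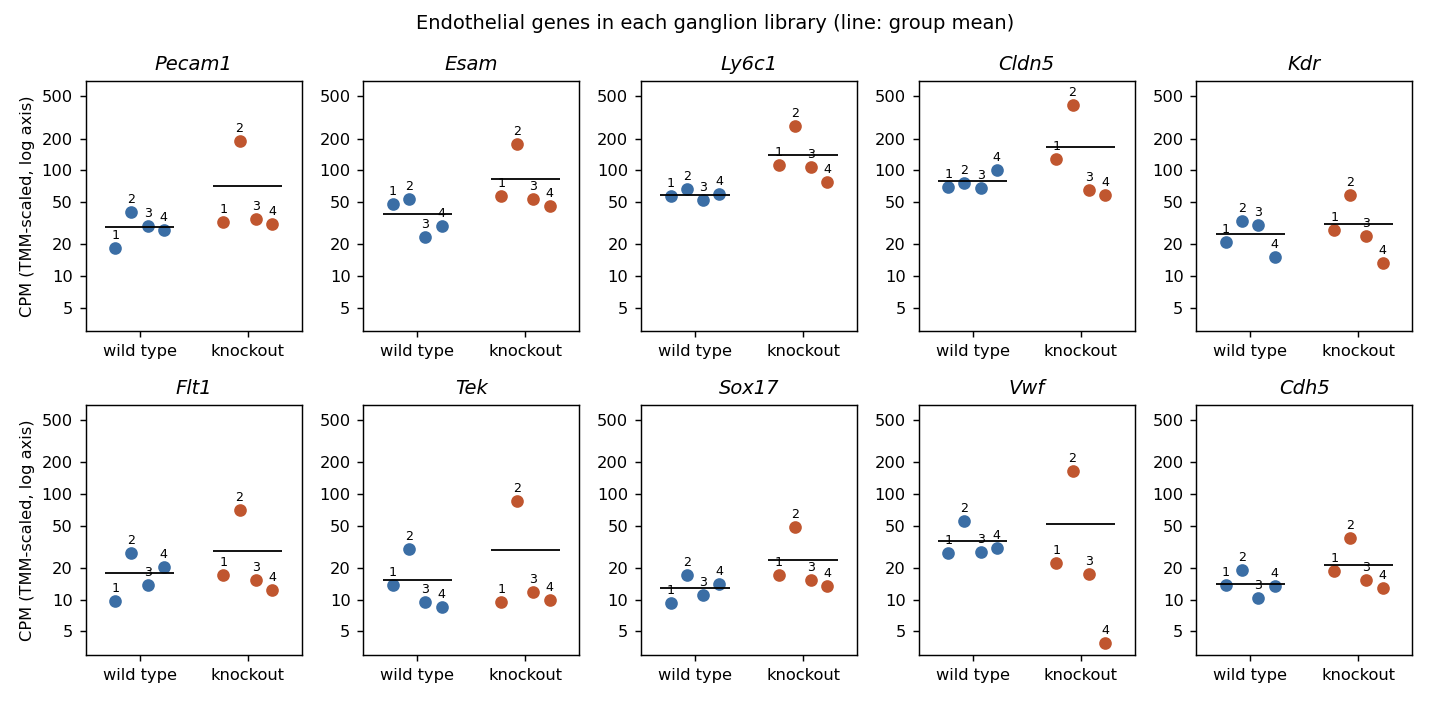
Each panel shows 1 endothelial gene, with TMM-scaled CPM on a log axis for the 4 wild type (blue) and 4 knockout (orange) libraries, a number for each library and a line at the group mean. Knockout library 2 is the highest point in 10 of the 10 panels, and in the panel of Ly6c1 the genotypes do not overlap.

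Scaled also by gene length, as log2 FPKM from the deposited table, the order of levels in wild type ganglia was Cldn5 (5.78 ± 0.26, SD, n = 4), Ly6c1 (5.16 ± 0.15), Esam (4.31 ± 0.57), Pecam1 (3.07 ± 0.46), Kdr (2.13 ± 0.53), Vwf (1.94 ± 0.48), Cdh5 (1.80 ± 0.36), Sox17 (1.62 ± 0.38), Tek (1.52 ± 0.83) and Flt1 (1.403 ± 0.66). The wild type ranges of the first 4 did not overlap between neighbours in that order. From Pecam1 to Flt1 the ranges of neighbours overlapped, so the order of those genes is not resolved by 4 libraries.

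**Figure D2:**
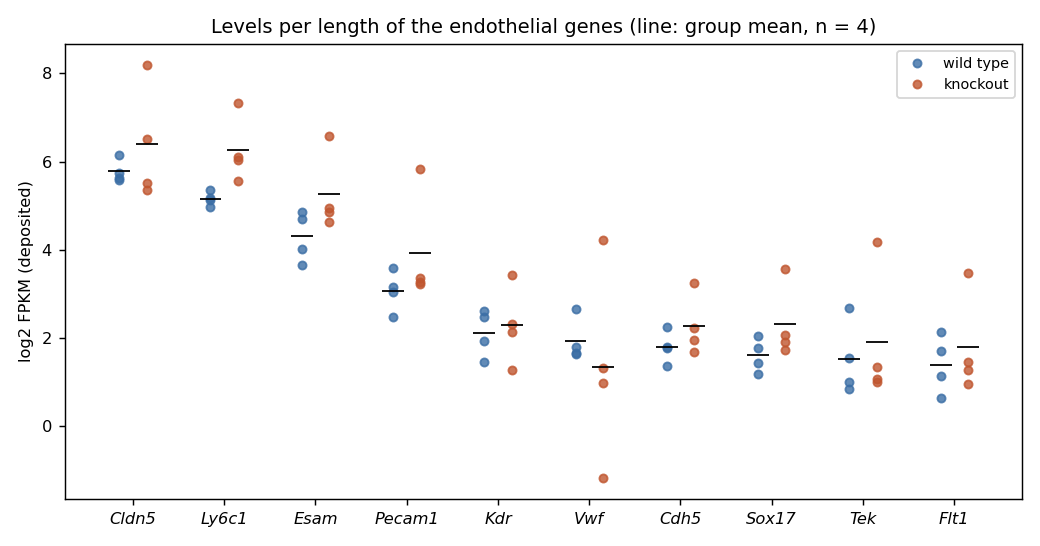
Log2 FPKM per library, on a linear axis, for the 10 endothelial genes in order of their wild type mean, with wild type libraries in blue and knockout libraries in orange. Cldn5 and Ly6c1 have the highest wild type means, 1 knockout library lies above the others at each gene, and the lowest single point is a knockout library at Vwf.

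Kdr and Flt1, the VEGF receptors, are neighbours in function and not in the genome: Kdr lies at chr5:75933270-75978428 and Flt1 at chr5:147562196-147725988, both on the minus strand of mm10. Kdr is the main signalling receptor for Vegfa, and Flt1 binds Vegfa and Pgf tightly while signalling weakly, which makes it a trap for the ligand. Kdr was at 20.98, 33.3, 30.4 and 14.96 CPM in wild type libraries 1 to 4 and at 27.1, 58.9, 24.1 and 13.2 CPM in knockout libraries 1 to 4. Flt1 was at 9.71, 27.7, 13.7 and 20.4 CPM in wild types and at 17.1, 70.2, 15.3 and 12.3 CPM in knockouts. For both genes the groups overlapped, knockout library 4 was the lowest knockout, and wild type library 2 the highest wild type. Kdr had a log2 fold change of 0.31 ± 0.43 (SE; 95% interval -0.64 to 1.25; n = 4 per genotype) in edgeR's fit, and Flt1 one of 0.68 ± 0.57 (-0.57 to 1.94). Without knockout library 2 both changed sign, to -0.22 ± 0.34 (-0.99 to 0.55) for Kdr and -0.27 ± 0.35 (-1.06 to 0.53) for Flt1. Kdr had the smallest excess of the 10 genes in knockout library 2, at 2.51-fold the mean of the other 7 libraries, and Flt1 was at 4.23-fold.

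Tek, the Tie2 receptor of the angiopoietins, lies at chr4:94739289-94874976 on the plus strand. It was at 13.7, 30.1, 9.44 and 8.49 CPM in wild type libraries 1 to 4 and at 9.42, 85.7, 11.9 and 9.89 CPM in knockout libraries 1 to 4. Library 2 was the highest of each genotype, and the other 6 libraries lay between 8.49 and 13.7 CPM. Its log2 fold change was 0.92 ± 0.75 (-0.76 to 2.60), and -0.57 ± 0.44 (-1.56 to 0.42) without knockout library 2. Its excess in knockout library 2, at 6.46-fold the mean of the other 7, was the largest among the 10 genes.

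The sequence before the transcription start of 5 of the 10 genes (Tek, Kdr, Flt1, Ly6c1 and Cldn5) was at hand, from RefSeq on GRCm38.p6, the build also called mm10. Many endothelial genes are known to be switched on by ETS factors, whose shared core is GGAA. The receptors Kdr (chr5:75978456-75978705) and Flt1 (chr5:147726012-147726261) and the tight junction gene Cldn5 (chr16:18776597-18776846) are shown because the receptors and the junction gene differ in their counts of this core. Each line gives the 250 bases before the start, 5′ to 3′ on the gene's strand, with GGAA or its reverse complement TTCC in capitals.
Kdr: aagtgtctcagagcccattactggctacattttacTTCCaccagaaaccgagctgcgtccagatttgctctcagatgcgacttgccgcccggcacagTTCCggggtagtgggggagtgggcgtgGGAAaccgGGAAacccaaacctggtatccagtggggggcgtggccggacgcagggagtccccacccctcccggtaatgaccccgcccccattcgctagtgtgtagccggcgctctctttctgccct
Flt1: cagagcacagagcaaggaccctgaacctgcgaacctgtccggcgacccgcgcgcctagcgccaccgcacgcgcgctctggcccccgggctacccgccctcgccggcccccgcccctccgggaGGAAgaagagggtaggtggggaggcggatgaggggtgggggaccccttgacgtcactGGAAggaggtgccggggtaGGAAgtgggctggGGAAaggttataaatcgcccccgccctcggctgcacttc
Cldn5: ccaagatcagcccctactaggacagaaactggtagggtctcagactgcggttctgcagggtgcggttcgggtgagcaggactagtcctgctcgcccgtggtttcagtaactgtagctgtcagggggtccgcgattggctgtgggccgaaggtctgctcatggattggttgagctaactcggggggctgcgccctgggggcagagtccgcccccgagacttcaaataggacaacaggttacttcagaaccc
The core occurred 4 times before Kdr, 4 times before Flt1, 2 times before Tek and 0 times before Cldn5. Ly6c1 has a pair of start windows that overlap, with 4 and 6 occurrences. Of 32851 mouse promoter windows of this length, 93.4% hold at least 1 GGAA on either strand, with a mean of 2.91 per window. The GC box GGGCGG was found before Kdr (2 times), Flt1 (3 times) and Cldn5 (1 time), against 32.7% of all windows with at least 1. The TATA box TATAAA was found before Flt1 and in 1 of the windows of Ly6c1, against 12.4% of all windows. The letters ACAATG, one form of the motif that SOX factors such as Sox17 bind, were found before 0 of the 5 genes, against 10.7% of all windows. For AGATAA, one form of the GATA factor motif, the count was also 0 of the 5, against 9.99% of all windows. Both strands were searched, and none of these letter strings contains another.

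Of the ligands of these receptors, none passed the test. Vegfa was at 27.8 ± 5.75 CPM in wild types and 26.9 ± 10.1 in knockouts (log2 fold change -0.05 ± 0.28, and -0.023 ± 0.31 without knockout library 2). Pgf, another ligand of Flt1, was at 38.0 ± 26.1 and 52.4 ± 12.4 CPM (0.47 ± 0.40, and 0.61 ± 0.42 without that library). Vegfb, the ligand gene with the highest mean level, was at 72.2 ± 8.24 and 86.3 ± 16.45 CPM (0.26 ± 0.17, and 0.36 ± 0.16 without that library). The Tek ligand Angpt1 was at 11.4 ± 5.99 and 15.7 ± 6.97 CPM (0.45 ± 0.45, and 0.16 ± 0.46 without it). Angpt2, an antagonist of Tek in many settings, was at 49.6 ± 5.52 and 59.6 ± 19.5 CPM (0.27 ± 0.23, and 0.21 ± 0.25 without it). Of 13 measured ligand genes, 4 were at least 2-fold the mean of the other libraries in knockout library 2, with a median of 1.68-fold. Among 15 further vascular receptors and co-receptors 11 were, with a median of 2.34-fold. The difference between these lists was not tested. In that list of receptors 0 were called, 11 had positive log2 fold changes with knockout library 2 and 7 without it.

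Apln, the ligand of the apelin receptor and a gene known from the tip cells of growing vessels, was the ligand with the smallest p. It was at 15.2, 21.5, 10.1 and 10.02 CPM in wild type libraries 1 to 4 and at 4.45, 8.96, 7.39 and 2.88 CPM in knockout libraries 1 to 4. All 4 knockout libraries lay below all 4 wild type libraries, an arrangement found in 1.41% of all genes. The log2 fold change was -1.26 ± 0.41 with an unadjusted p of 0.0115 and an adjusted p of 0.924 in edgeR's test. With knockout library 2 left out it was -1.54 ± 0.43 (edgeR, adjusted p 0.679).

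Cell adhesion and junctions were represented by Cdh5, Pecam1, Esam and Cldn5. VE-cadherin, the product of Cdh5 (chr8:104101625-104144502, plus strand), holds endothelial cells together at adherens junctions. Cdh5 was at 13.9, 18.9, 10.3 and 13.5 CPM in wild type libraries 1 to 4 and at 18.8, 38.0, 15.4 and 12.8 CPM in knockout libraries 1 to 4. The groups overlapped, and apart from knockout library 2 every value lay between 10.3 and 18.9 CPM. For Cdh5 the log2 fold change was 0.59 ± 0.36 (-0.20 to 1.38), and 0.14 ± 0.27 (-0.47 to 0.75) without knockout library 2.

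Pecam1 (CD31; chr11:106654213-106715281, minus strand) encodes an adhesion molecule of endothelial borders that platelets and leukocytes also carry. It was at 18.5, 40.2, 29.6 and 27.3 CPM in wild type libraries 1 to 4 and at 32.4, 189, 34.4 and 31.0 CPM in knockout libraries 1 to 4. Except in library 2, the knockouts lay within the wild type range, and knockout library 2 was 6.21-fold the mean of the other 7 libraries. Across all 8 libraries its log2 fold change was 1.31 ± 0.59 with an interval from 0.000348 to 2.63 and an unadjusted p of 0.04995, and 0.17 ± 0.26 (-0.40 to 0.75) without knockout library 2. Summed over 8 macrophage genes, the wild type libraries held 674 to 910 CPM, knockout library 2 held 1012 CPM and the lowest knockout, library 4, held 411 CPM. The part of leukocyte RNA in the level of Pecam1 was not tested.

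Esam (chr9:37528089-37538319, plus strand), an immunoglobulin-like adhesion molecule of endothelial tight junctions, was at 48.4, 53.8, 23.3 and 30.0 CPM in wild type libraries 1 to 4. It was at 57.3, 176.5, 54.0 and 46.0 CPM in knockout libraries 1 to 4. Knockout libraries 1, 2 and 3 lay above every wild type library, and library 4 lay within the wild type range. Esam had a log2 fold change of 1.10 ± 0.45 (0.10 to 2.10) with an unadjusted p of 0.0341. Without knockout library 2 it was 0.43 ± 0.29 (-0.22 to 1.08), with an unadjusted p of 0.172 in edgeR's test.

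Cldn5 (chr16:18776847-18778262, plus strand) had the highest level of the 10 genes per length in wild types. It was at 70.0, 76.1, 68.0 and 100.4 CPM in wild type libraries 1 to 4 and at 129, 415, 65.0 and 58.2 CPM in knockout libraries 1 to 4. The knockout libraries fell on both sides of the wild type range, with libraries 1 and 2 above it and libraries 3 and 4 below it. Cldn5 had a log2 fold change of 1.09 ± 0.55 (-0.15 to 2.32), and 0.093 ± 0.28 (-0.54 to 0.73) without knockout library 2. Among 15 further junction and surface genes, 0 were called, 12 had positive log2 fold changes and 9 had them without knockout library 2. The smallest p in that list was that of Ly6a (Sca-1), a surface protein of the Ly6 family that endothelium carries, at 55.6 ± 2.33 CPM in wild types and 131 ± 115 in knockouts, with 302.5 CPM in knockout library 2. Its log2 fold change was 1.24 ± 0.47, and 0.40 ± 0.19 without that library.

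Ly6c1 was the 1 gene of the 10 whose genotypes lay apart both with and without knockout library 2, while Vwf lay apart only without it. It encodes a GPI-anchored surface protein that marks endothelium of brain and nerve vessels and also lymphoid and myeloid cells, and it lies at chr15:75044018-75048837 on the minus strand. It was at 57.6, 67.0, 51.8 and 59.2 CPM in wild type libraries 1 to 4 and at 112.8, 265, 107 and 77.8 CPM in knockout libraries 1 to 4. Every knockout library lay above every wild type library, as in 1.21% of all genes, and the lowest knockout, library 4, was 77.8 against a highest wild type of 67.0 CPM. The means were 58.9 ± 6.25 CPM in wild types and 140.7 ± 84.3 CPM in knockouts, or 99.3 ± 18.8 CPM (n = 3) without knockout library 2. The log2 fold change was 1.26 ± 0.34 (0.51 to 2.01) with an unadjusted p of 0.00389 and an adjusted p of 0.924 in edgeR's test. Without knockout library 2 it was 0.75 ± 0.18 (0.35 to 1.15), with an unadjusted p of 0.00196 and an adjusted p of 0.679 in edgeR's test, and 3.71% of all genes then had every knockout above every wild type. Over 19 alternative settings the log2 fold change stayed between 0.75 and 1.46 and the adjusted p between 0.113 and 1.00. The authors' deposited table lists a false discovery rate of 0.228 for Ly6c1. Relative to Cdh5 in the same library, the CPM of Ly6c1 was 3.54 to 5.03 times as high in wild types and 6.01 to 6.97 times as high in knockouts, knockout library 2 included. It is 1 of 7 such ratios between the genes, chosen after the values were seen and with no test, of which 5 overlapped between genotypes and 2 did not.

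Ly6c1 has a close paralogue, Ly6c2, on the same chromosome, which marks monocytes and other myeloid cells. The coding sequences of both are 393 bases long and differ at 9 of them, an identity of 97.7%. Coding exon 1 holds 6 of the 9 in 70 bases, exon 2 holds 0 in 117 and exon 3 holds 3 in 206. Exon 1, where the coding sequences differ most, is shown for both genes (GRCm38, minus strand, Ly6c1 at chr15:75048442-75048511 and Ly6c2 at chr15:75111598-75111667, differing bases in capitals).
Ly6c1: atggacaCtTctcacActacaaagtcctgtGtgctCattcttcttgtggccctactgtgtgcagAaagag
Ly6c2: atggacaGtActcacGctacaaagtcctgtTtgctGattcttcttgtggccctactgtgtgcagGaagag
Of 1706 windows of 150 bases along the Ly6c1 transcripts, 39 (2.29%) also occur in transcripts of Ly6c2. Ly6c2 was at 7.01, 5.34, 29.1 and 64.2 CPM in wild type libraries 1 to 4 and at 27.5, 25.1, 7.54 and 2.90 CPM in knockout libraries 1 to 4. The genotypes overlapped, and wild type libraries 4 and 3 were the highest. Its log2 fold change was -0.75 ± 0.85, and -1.07 ± 1.00 without knockout library 2, but 0.19 without wild type library 4. Summed over 4 monocyte genes, Ly6c2 among them, wild types held 20.5 to 114 CPM and knockouts 9.96 to 63.5 CPM. The part of reads shared between the paralogues in the levels of Ly6c1 was not tested.

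**Figure D3:**
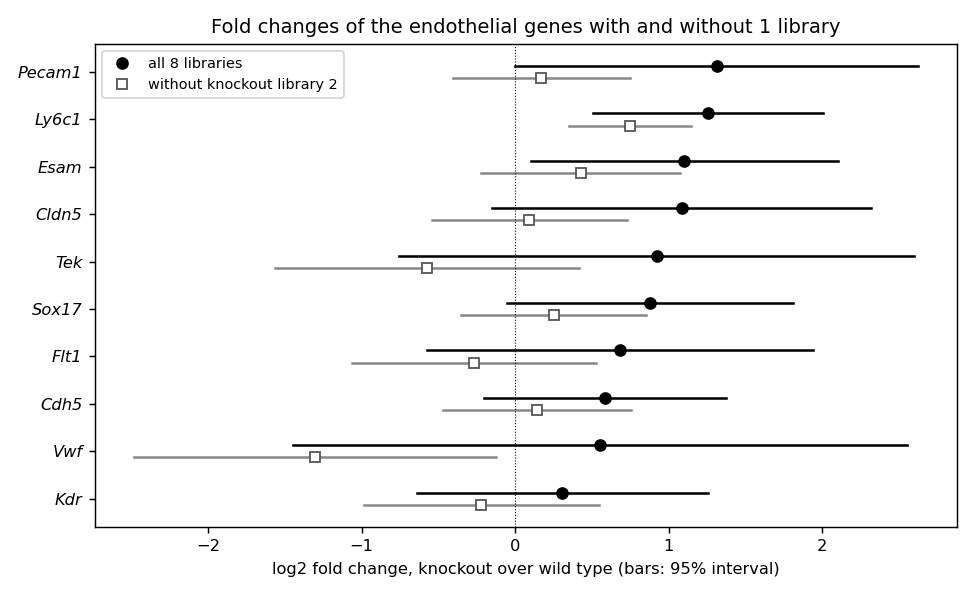
Log2 fold change of knockout against wild type with 95% intervals from edgeR's fit for the 10 endothelial genes, from all 8 libraries and from the 7 libraries without knockout library 2. Without that library the estimates move towards or below 0, Ly6c1 keeps an interval above 0, and the interval of Vwf lies below 0. The library was left out for its high values in these genes, which lowers the estimates by construction.

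Sox17 (chr1:4490928-4497354, minus strand), a transcription factor known for setting arterial identity, was at 9.32, 17.03, 11.1 and 13.9 CPM in wild type libraries 1 to 4. It was at 17.1, 48.5, 15.3 and 13.6 CPM in knockout libraries 1 to 4. The groups overlapped, with knockout libraries 3 and 4 inside the wild type range. The log2 fold change was 0.88 ± 0.42 (-0.05 to 1.81), and 0.25 ± 0.27 (-0.35 to 0.86) without knockout library 2. Sox17 shares 804 exonic bases with Gm37587, a gene model on the opposite strand, and no step that keeps strand is described, so reads there cannot be assigned to either. Of 14 further endothelial transcription factors, 13 had positive log2 fold changes and 4 had them without knockout library 2, and 0 were called. In that list Sox18, a relative of Sox17, was at 13.99 ± 2.97 CPM in wild types and 28.6 ± 24.1 in knockouts, and the ETS factor Erg at 0.327 ± 0.274 and 1.72 ± 1.45 CPM. Their log2 fold changes were 1.03 ± 0.48 and 2.40 ± 0.94, and without knockout library 2 they were 0.26 ± 0.30 and 1.74 ± 1.00.

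Vwf (von Willebrand factor; chr6:125552948-125686679, plus strand) encodes the large glycoprotein that tethers platelets and is stored in endothelial granules and in platelets. It was at 27.4, 55.9, 28.0 and 30.9 CPM in wild type libraries 1 to 4 and at 22.2, 165, 17.3 and 3.88 CPM in knockout libraries 1 to 4. Knockout library 2 was the highest and the other 3 knockout libraries were the lowest of all 8, and on the log2 scale Vwf had the widest spread among knockouts of the 10 genes. The log2 fold change was 0.55 ± 0.89 (-1.45 to 2.55) with an unadjusted p of 0.550. Without knockout library 2 it was -1.30 ± 0.52 (-2.48 to -0.12), with an unadjusted p of 0.0338 and an adjusted p of 0.679 in edgeR's test. All 3 remaining knockouts then lay below all 4 wild types, as in 3.73% of all genes. The library left out was picked for being high in these genes, so this p and this arrangement lean lower by that choice. The share over all genes, which were not chosen that way, is no fair measure for it. Relative to Pecam1 in the same library, the CPM of Vwf was 0.946 to 1.48 times as high in wild types and 0.125 to 0.872 times as high in knockouts, knockout library 2 included. The ratio to Cdh5 did overlap, at 1.97 to 2.95 in wild types and 0.304 to 4.35 in knockouts. Both are among the 7 ratios chosen after the values were seen. Summed over 6 platelet and megakaryocyte genes, the libraries held 37.5 to 134 CPM in wild types and 22.3 to 69.0 CPM in knockouts. The lowest sum was that of knockout library 4, which was also lowest in Vwf. The highest was that of wild type library 4, where Vwf was at 30.9 CPM, and knockout library 2, highest in Vwf, held 69.0 CPM. Log2 fold changes were positive for 1 of the 6 platelet genes, against 51.3% of all genes, with a median of -0.56. Without knockout library 2 they were positive for 0 of the 6, against 48.9%, with a median of -1.25. The part of platelet RNA in the level of Vwf was not tested.

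Over 10 further genes of haemostasis and secretion, 8 had positive log2 fold changes and 4 had them without knockout library 2, and 0 were called. In that list Edn1, the vasoconstrictor endothelin-1, was at 2.82, 2.80, 1.27 and 2.86 CPM in wild type libraries 1 to 4 and at 3.60, 29.4, 1.73 and 1.46 CPM in knockout libraries 1 to 4. Its log2 fold change was 1.89 ± 0.91, and -0.11 ± 0.58 without knockout library 2. Of 14 genes of barrier transport, 9 had positive log2 fold changes, 6 had them without knockout library 2, and 0 were called. The efflux pump Abcg2 had the smallest p of that list, at 87.6 ± 19.6 CPM in wild types and 138 ± 56.4 in knockouts (log2 fold change 0.65 ± 0.28, unadjusted p of 0.0397 in edgeR's test). Leaving out knockout library 2 gave 0.34 ± 0.22, with an unadjusted p of 0.148 in edgeR's test. Taking the 94 measured genes of the 7 further vessel lists together, 0 were called, and at an unadjusted p under 0.05, 5 were higher, against 1.94% of all genes, and 1 lower, against 2.9%. Leaving out knockout library 2 gave 2 higher, against 2.54%, and 5 lower, against 4.69%. Of the 94 log2 fold changes, 71 were positive with all libraries, against 51.3% of all genes, and 44 without knockout library 2, against 48.9%.

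Across libraries the 10 genes varied largely together. Wild type library 2 was the highest wild type for 9 of the 10, the exception being Cldn5. Knockout library 4 was the lowest knockout for 9 of the 10, the exception being Tek. The shares of all genes with these arrangements were not counted. Centred on each gene's mean log2 CPM, knockout library 2 averaged 1.88 over the 10 genes, knockout library 1 averaged 0.0012, and knockout library 4 averaged -0.69. Wild type library 2 averaged 0.27 and the other 3 wild types between -0.48 and -0.35. The genes outside the lists whose centred profile over the 8 libraries was nearest to this mean profile, by root mean square difference among 11600 genes with a mean of at least 5 CPM, were Thsd4 (0.218), Slc4a10 (0.259), Dock6 (0.267), Foxf2 (0.280), Ltbp4 (0.281), Pear1 (0.284), Net1 (0.297), Marveld1 (0.300), Paqr5 (0.303) and Tinagl1 (0.307). Among the 10 endothelial genes this difference ran from 0.244 for Sox17 to 0.909 for Vwf, although these share in the mean they are compared with.

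**Figure D4:**
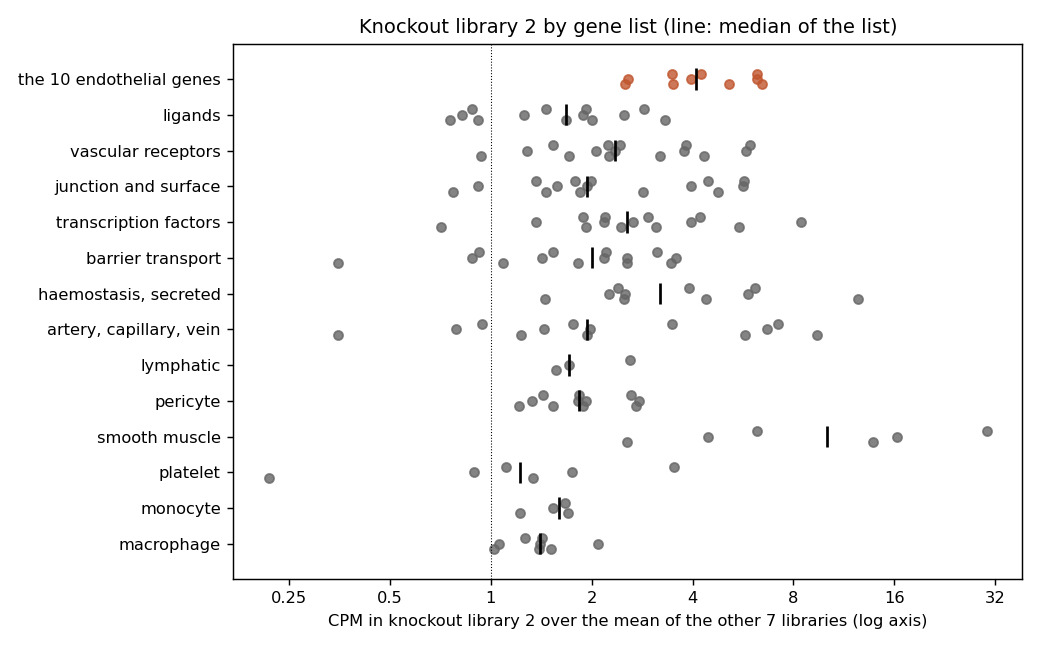
Level in knockout library 2 as a multiple of the mean of the other 7 libraries, on a log axis, with a point for each gene of the endothelial set, of the further vessel lists and of the platelet, monocyte and macrophage lists, a short line at each median and a dotted line at 1. The 10 endothelial genes lie between 2.51 and 6.46, smooth muscle genes have a median of 10.04 and macrophage genes one of 1.4.

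Markers of other cells of the vessel wall and of neighbouring tissue also differed in knockout library 2. Summed over 6 smooth muscle genes, wild type libraries 1 to 4 held 80.3, 84.0, 58.1 and 120 CPM. The sums in knockout libraries 1 to 4 were 135, 959, 95.9 and 137 CPM. Of the 6 genes, Des was highest in knockout library 4, at 60.1 CPM, against 34.05 CPM in knockout library 2. Over 11 pericyte genes the sums were 683, 819, 329 and 408 CPM in wild types and 1053, 1529, 445 and 338 CPM in knockouts. Most of these sums was Vtn, at 1352 CPM in knockout library 2. The 10 others summed to 100.6, 125.6, 119.6 and 78.0 CPM in wild types and to 82.6, 176.3, 91.4 and 57.0 CPM in knockouts. Of these lists, 6 of 6 smooth muscle genes and 3 of 11 pericyte genes were at least 2-fold the mean of the other libraries in knockout library 2. The 7 choroid plexus genes summed to between 443 and 799 CPM in wild types. Their sum was 2083 CPM in knockout library 2 and between 378 and 703 CPM in the other knockouts. The gene of the 7 with the largest mean, Enpp2, was at 295 to 647.5 CPM in wild types, 813 CPM in knockout library 2 and 178 to 251 CPM in the other knockouts. Ttr was higher in knockout library 2, at 918 CPM, against 51.1 to 88.5 CPM in wild types and 80.85 to 184 CPM in the other knockouts. Log2 fold changes were positive for 6 of the 7 both with and without knockout library 2, against 51.3% and 48.9% of all genes. The exception was Enpp2, at -0.30 ± 0.48, and -1.045 ± 0.31 without that library. At an unadjusted p under 0.05 in edgeR's test, 4 of the 7 were higher, against 1.94% of all genes, and 0 were called. The 3 lymphatic endothelial genes summed to 22.6 to 40.5 CPM in wild types and 25.8 to 53.5 CPM in knockouts. The 7 neuronal genes ran the other way, with 3788 CPM in knockout library 2, the lowest of the 8 libraries, against 4429 to 10780 CPM in wild types and 6866 to 11150 CPM in the other knockouts. Knockout library 4 differed in another way, with 1274 CPM summed over 5 skeletal muscle genes, against 8.51 to 45.3 CPM in the other libraries. The part of vessel wall, muscle, other neighbouring tissue or neuronal content in the levels of the endothelial genes was not tested.

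**Figure D5:**
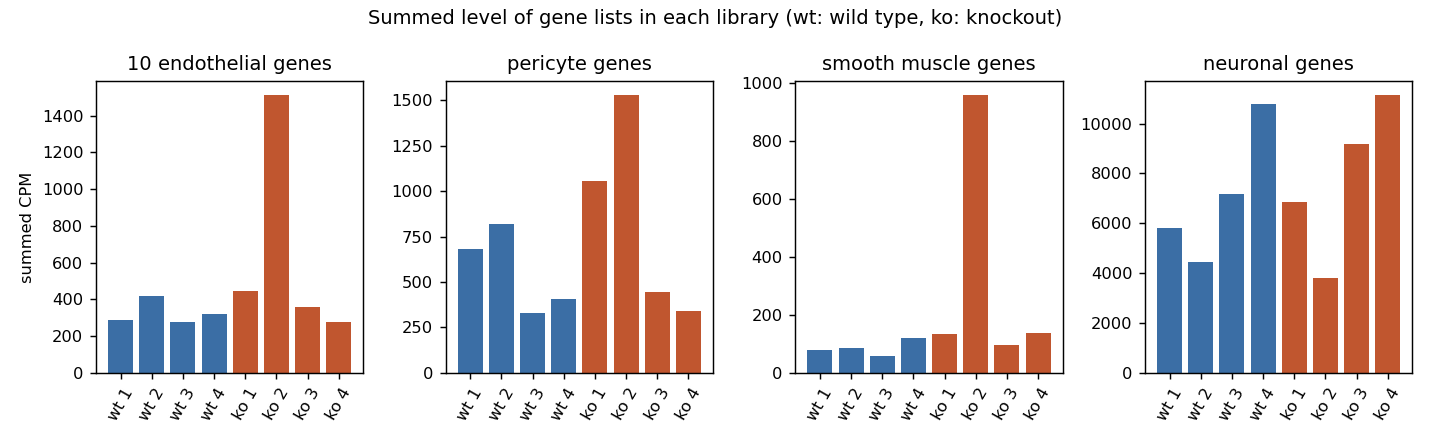
Bars give the summed CPM in each library, on linear axes from 0, for the 10 endothelial genes and for pericyte, smooth muscle and neuronal genes, with wild type libraries in blue and knockout libraries in orange. Knockout library 2 is highest for the endothelial (1513), pericyte (1529) and smooth muscle (959) sums and lowest for the neuronal sum (3788).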

How the data were processed

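Per the labels' protocols, total RNA of geniculate ganglia (RIN above 8) was made into SMART-Seq v4 and Nextera XT libraries from 1 ng each and read in pairs of 150 bases. The build is mm10, and the tools are FastQC 0.11.5, STAR 2.5, Subread 1.5.1 with featureCounts, and edgeR 3.12.1, per the submitters' processing notes. The table the authors deposited holds a raw count per gene and library, log2 FPKM values, a log2 fold change, p-value and false discovery rate per gene, and gene lengths. All tests used the deposited counts. The deposited log2 FPKM values served to order levels between genes.

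The tests ran on TMM-scaled counts in edgeR 4.0.16 under R 4.3.3 (robust quasi-likelihood F-test, two-sided, genotype as the only factor, 8 libraries). The default filterByExpr removed 0 genes, and adjustment was by Benjamini-Hochberg over 15110 genes. A standard error is the estimate over the square root of F, and intervals are at 95%. The fit was tested on simulated data. No 2 libraries of a genotype agreed within sampling noise. Alternatives used other scalings, filters and tests, among them limma 3.58.1 and DESeq2 1.42.0, the number as a block, and each library left out. Another added the Xist class, which splits libraries by whether their Xist count is above 50. How the classes fall over the genotypes is not given here. Leaving out both libraries numbered 2 was chosen after seeing the data.

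The 10 genes and all lists were chosen with earlier results of these data known. Genes named outside the 10 are those with the smallest p of each vessel list (up to 3), the ligands Vegfa, Pgf, Angpt1 and Angpt2, the paralogue Ly6c2, and the 10 genes nearest in profile. Further genes were named after their values were seen. These are the artery genes Bmx, Sema3g and Gkn3, the capillary genes Gpihbp1, Rgcc and Spock2, the ligand Vegfb, and Enpp2 and Ttr of the choroid plexus list. Promoters come from RefSeq (GRCm38.p6), transcripts and exon overlaps from GENCODE M21, and protein sequences were not used here.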

Additional observations from a re-analysis of the deposited data

Results flagged for a closer look

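Within each genotype the highest or lowest of the 4 libraries was looked at for each named gene and for the mean of the endothelial genes, by its gap to the nearest other library as a share of the range. Cases past the 95% critical value of Dixon's test are given, and chance gives about 5.6 such cases in the 112 groups looked at. There were 22, and in 18 of them knockout library 2 was the highest knockout. The groups include genes named for a small p or for a profile near that of the endothelial genes, which knockout library 2 leads, so the number by chance is no fair measure for them. Among the 10 endothelial genes this was so for Pecam1 (0.978), Tek (0.968), Flt1 (0.916), Esam (0.913), Sox17 (0.899) and Vwf (0.886). Wild type library 2 stood above the other wild types for Vwf (0.876) and for the mean of the 10 genes (0.832). Among genes of the further vessel and vessel wall lists, knockout library 2 stood apart for the TGF-beta co-receptor Eng (0.921), Ly6a (0.848), Cd93 (0.84), Sox7 (0.875), Edn1 (0.923), Cnn1 (0.956) and Acta2 (0.94), the last 2 being smooth muscle genes. For Edn1 wild type library 3 was also the lowest of its group (0.961), and for the lymphatic transcription factor Prox1 wild type library 2 was the highest (0.89). Of the genes nearest in profile, knockout library 2 stood apart for Foxf2 (0.884), Ltbp4 (0.859), Net1 (0.871), Paqr5 (0.907) and Tinagl1 (0.872).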

How the results depend on the processing

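No endothelial gene was called under any of the 19 alternative fits, of which DESeq2 gave no p for Pecam1 and Tek, and 3 were past an unadjusted p of 0.05, a looser rule, with a range of 1 to 5 over the fits. The count over all genes, 1 as reported, was 14 with DESeq2 (7 higher, 7 lower), 10 with the likelihood ratio test, and 0 with RLE factors, with library size alone, with the Xist class in the model and without both libraries numbered 2. Leaving out 1 library gave 0 to 1. With the replicate number as a block it was 2, and 1452 genes had an unadjusted p under 0.05. The labels do not say whether the numbers pair mice, and pairing was not tested. Deviations of same-numbered libraries correlated at 0.0040 to 0.15, highest for the libraries numbered 2. Of the 4 wild types, 2 correlated best with their own number. Correlations over 4 pairs cannot decide whether the mice were paired. The median log2 fold change of the 10 genes ran from 0.12 without knockout library 2 to 1.14, and was 0.34 with the Xist class, 0.54 with the block, 0.56 with limma-voom and 0.20 without both libraries numbered 2. With 1 library left out, the log2 fold change turned sign without knockout library 2 alone for Kdr (range -0.22 to 0.56), Flt1 (-0.27 to 0.98), Tek (-0.57 to 1.49), Vwf (-1.30 to 0.94), Edn1 (-0.11 to 2.25), Thsd4 (-0.30 to 0.75), Slc4a10 (-0.17 to 0.87), Ltbp4 (-0.28 to 1.12) and Pear1 (-0.15 to 0.67). It also turned for Prox1 (-1.13 to 0.61), Ly6c2 (-1.16 to 0.19) and Vegfa (-0.34 to 0.079) without other single libraries. Without both libraries numbered 2 it turned for Kdr (-0.044), Tek (-0.018), Vwf (-0.99), Edn1 (-0.032), Thsd4 (-0.080) and Vegfa (0.012). Vwf was also negative with the Xist class (-0.81), limma-voom (-0.59) and the block (-0.56). The cause was not tested. Thsd4, Slc4a10, Ltbp4 and Pear1 were picked for a profile near that of the endothelial genes, which knockout library 2 leads. Their turn of sign without that library is in part built into that choice. With 4 libraries per genotype, 1 of which sets most of the knockout spread, differences inside the intervals given were not resolved.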

Other observations

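Genes of different vessel segments took unequal levels in knockout library 2. Of 5 artery genes, 5 were at least 2-fold the mean of the other 7 libraries, namely the gap junction genes Gja4 (6.67) and Gja5 (9.39), the kinase gene Bmx (5.73), Sema3g (3.47) and Gkn3 (7.17). Of 6 capillary genes 0 were, with a range of 0.349 to 1.76 and a median of 1.09. The 2 vein genes were at 1.94 and 1.98. The lowest capillary ratio was that of Gpihbp1, a gene at only 0.031 to 3.45 CPM over the libraries. Rgcc and Spock2, also in the capillary list, averaged 91.3 and 114 CPM over the 8 libraries, above the 17.7 CPM of Cdh5. The part of other cells in their levels was not tested. Gja5, with the highest artery ratio, was at 0 CPM in wild type libraries 1 and 4. This split of the vessel segment list was made after its values were seen and has no test. In the separate list of barrier transport genes, 7 of 14 were at least 2-fold the mean of the other libraries in knockout library 2, with a median of 2.00. Gja4 was at 4.63, 4.598, 5.31 and 5.65 CPM in wild type libraries 1 to 4 and at 16.1, 48.5, 8.44 and 6.20 CPM in knockout libraries 1 to 4. As for Ly6c1, all 4 knockout libraries lay above all 4 wild types, as in 1.21% of all genes. The log2 fold change was 1.97 ± 0.58, with an unadjusted p of 0.00687 and an adjusted p of 0.924 in edgeR's test. With knockout library 2 left out it was 1.02 ± 0.37, with an unadjusted p of 0.0217 and an adjusted p of 0.679 in edgeR's test. Car4, a carbonic anhydrase of capillary endothelium, ordered the knockouts differently, with 16.1, 25.3, 27.9 and 44.8 CPM in knockout libraries 1 to 4 against 10.7, 18.9, 10.5 and 15.3 CPM in wild types. Its log2 fold change was 1.04 ± 0.33 (edgeR, adjusted p 0.924), and 1.09 ± 0.36 (adjusted p 0.679, same test) without knockout library 2. Its highest level was in knockout library 4, the lowest knockout for 9 of the 10 endothelial genes. In that library skeletal muscle genes summed to 1274 CPM and 2 adipocyte genes to 33.4 CPM, against at most 45.3 and 6.46 CPM in the others, and their part in the level of Car4 was not tested.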
